A study of Mus musculus with 8 samples.

Results

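Regulators of G-protein signalling (RGS proteins) switch off heterotrimeric G proteins, and the transcripts of 10 of them (Rgs2, Rgs4, Rgs6, Rgs7, Rgs8, Rgs9, Rgs10, Rgs14, Rgs17 and Rgs20) were followed in mice short of the neuronal sodium channel NaV1.2. The members were taken by gene symbol and make up 10 of the 54446 genes counted. All 10 passed the filter on low counts and belong to the 17395 genes tested. RNA was sequenced in 8 mouse samples. The 4 wild-type (WT) samples carry no trapped allele. The 4 homozygous (HOM) samples are Scn2agt/gt, with a gene-trap cassette in both copies of Scn2a, the gene of NaV1.2. Both come from crosses of heterozygous mice, on a strain given as C75BL6, and no treatment is listed for either genotype. The series describes the animals as adult, and age in weeks and sex are not in the labels. The trap acts in every cell that uses Scn2a, so effects on other cells or earlier in life are included. The question is which transcripts differ when little NaV1.2 is made.

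When a receptor activates a G protein, its alpha subunit binds GTP and separates from the beta and gamma subunits. RGS proteins hold a shared domain that speeds up the hydrolysis of this GTP and so shortens the signal. In neurons they set how fast muscarinic, dopamine, opioid, GABA-B and metabotropic glutamate receptors turn potassium channels, calcium channels and second messengers on and off. By sequence the family is divided into small R4 proteins (here Rgs2, Rgs4 and Rgs8), R7 proteins that work only in a complex with the G beta 5 protein (Rgs6, Rgs7 and Rgs9), R12 proteins (Rgs10 and Rgs14) and RZ proteins (Rgs17 and Rgs20).

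Total counts per library lay between 27993412 and 37538988, and each member had between 544 (Rgs10) and 12266 (Rgs4) counts in every library. Levels are given as CPM, the usual per-library unit of counts relative to the scaled library size. Scn2a stood at 435 ± 51.6 CPM in WT and 128 ± 15.1 CPM in HOM (SD, n = 4), with no overlap. Its edgeR adjusted p was 1.16e-05, at a log2 fold change of -1.77. The source is labelled neuron with no brain region, but markers of all main brain cell types were present. The summed level of 6 oligodendrocyte markers was 3651 to 5483 CPM in WT and 3147 to 3846 CPM in HOM, and that of 6 astrocyte markers was 4154 to 4462 and 3232 to 4072 CPM. The summed level of 6 markers of excitatory neurons was 5282 to 5953 CPM in WT and 4614 to 5199 CPM in HOM. For 6 interneuron markers it was 783 to 911 and 681 to 737 CPM. Of these 12 neuronal markers, Gad1 and Neurod6 fell and none rose (edgeR adjusted p under 0.05). By the same test 2.94% of all genes fell and 2.47% rose. Among the glial markers the astrocyte gene Aqp4 fell (log2 fold change -0.40, edgeR adjusted p = 0.0417) and the microglial gene C1qa rose (0.44, 0.04997). All 6 oligodendrocyte markers were below 0 in log2 fold change with an edgeR unadjusted p under 0.05, and DESeq2 called 3 of them. All 8 microglial markers tested were above 0, and DESeq2 called 3. The summed level of 6 endothelial markers was 152 to 201 CPM in WT and 121 to 153 CPM in HOM, and 2 of them, Flt1 and Cdh5, fell. The summed level of 11 choroid plexus markers ran from 148 to 1725 CPM in WT, highest in replicate 4, and from 19.7 to 236 CPM in HOM. In edgeR 4 of these 11 fell and none rose. HOM replicate 4 had 2 counts of Y-linked genes, against 4452 to 5984 in each other library. By these counts it looks female and the others male. No fit took sex as a covariate, though fits without HOM replicate 4 were run. In RNA from mixed tissue, fewer cells of a type and less RNA per cell cannot be told apart. The labels do not say that each sample came from its own animal, and the p-values refer to the spread of these samples.

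Of the 10 members, Rgs4 and Rgs8 fell in HOM and none rose, while 8 did not pass (edgeR quasi-likelihood test, adjusted p under 0.05 over all 17395 genes). Of all genes tested 5.4% passed (940), 2.94% lower (511) and 2.47% higher (429); with upper-quartile scaling 355 were lower and 539 higher, and with library totals only 286 and 844. Unadjusted p was under 0.05 for 3 members and 22.9% of all genes. DESeq2 called 3 members and 10.9% of all genes, and limma-voom 2 members and 5.5%. In CPM scaled by TMM factors, all members of the R4 group were lower in every HOM library than in any WT library. This lack of overlap was found in the lower direction for 7.47% of all genes, in the higher direction for 6.63% and in either for 14.1%. The factors were 0.961 to 0.988 in WT and 1.02 to 1.03 in HOM libraries (exact two-sided permutation p = 0.0286). Relative to library totals alone, Rgs4 and Rgs8 still separated the genotypes, but Rgs2 overlapped. The 7 members outside the R4 group overlapped between genotypes in scaled CPM. The median log2 fold change was 0.03 over the 10 members and 0.00 over all genes, with 5 members below and 5 above 0.

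**Figure D1:**
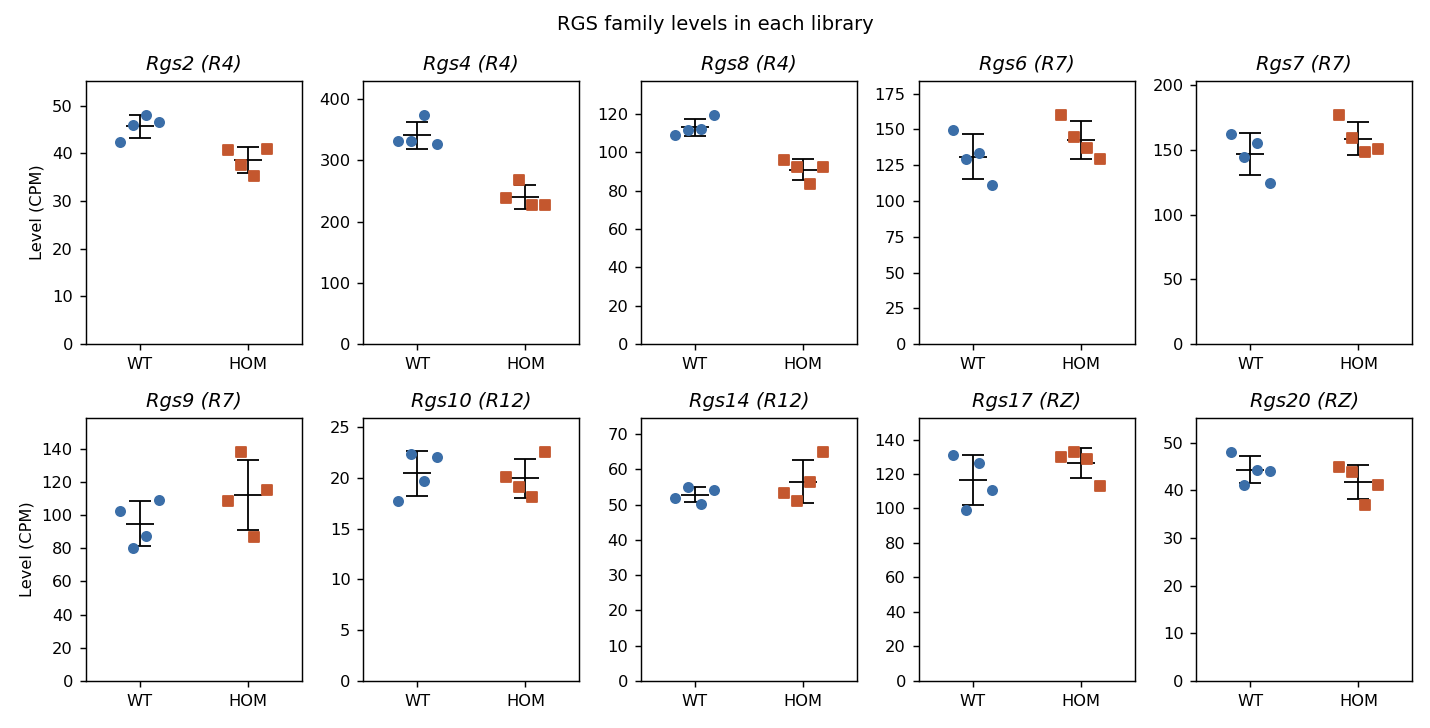
Levels in CPM (y axis, from 0) of the 10 members in each library, circles for WT and squares for HOM in replicate order from left to right, with the mean and SD of 4 libraries in black. In these scaled values the 3 R4 genes in the upper row have all HOM squares below all WT circles, and the other 7 overlap.

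Rgs4 and Rgs8 are the members that passed and Rgs2 is the third member whose genotypes did not overlap in scaled CPM. The stretches upstream of their RefSeq start sites are therefore shown. They run from base -250 to base -16 before the start, on the gene's strand in GRCm38.p6. Capitals mark TGACG or its reverse complement, the core of the cAMP response element. They also mark the box near the start of Rgs4 that is spelled TATAAA. Those of Rgs4 (chr1:169747658-169747892, minus strand), Rgs8 (chr1:153652787-153653021, plus strand, the most upstream of its 3 entries) and Rgs2 (chr1:144004165-144004399, minus strand) read as follows.
Rgs4: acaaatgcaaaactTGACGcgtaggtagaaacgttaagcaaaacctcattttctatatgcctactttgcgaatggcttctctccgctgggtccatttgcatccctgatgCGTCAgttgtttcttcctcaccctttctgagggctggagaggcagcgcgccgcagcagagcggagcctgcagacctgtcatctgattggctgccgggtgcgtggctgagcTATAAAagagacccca
Rgs8: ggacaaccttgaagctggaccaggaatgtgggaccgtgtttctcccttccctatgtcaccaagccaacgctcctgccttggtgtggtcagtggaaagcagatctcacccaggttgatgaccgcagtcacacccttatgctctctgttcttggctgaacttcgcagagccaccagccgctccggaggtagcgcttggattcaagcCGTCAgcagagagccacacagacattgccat
Rgs2: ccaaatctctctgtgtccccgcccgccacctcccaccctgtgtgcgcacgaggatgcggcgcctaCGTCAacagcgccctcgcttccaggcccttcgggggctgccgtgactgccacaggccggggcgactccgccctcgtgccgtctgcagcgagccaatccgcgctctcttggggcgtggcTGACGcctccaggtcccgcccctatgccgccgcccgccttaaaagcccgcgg

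The RefSeq promoter table held 10 entries for 8 of the 10 members, and Rgs14 and Rgs20 were not matched. TGACG, searched on both strands, was in 3 of these 10 stretches, 1 each of Rgs4, Rgs8 and Rgs2. Of all 32851 promoter stretches of this length, 16.3% hold it. There are 2 matches in Rgs4, 2 in Rgs2 and 1 in Rgs8. The full element TGACGTCA, which contains TGACG, was in none of the 10 and in 1.37% of all. The Egr site GCGNGGGCG was in the Rgs2 stretch alone of the 10 (4.18% of all) and the AP-1 site TGANTCA in that of Rgs17 alone (6.48%). TATAAA was in those of Rgs4 and Rgs9 (11.9%) and the E-box CACGTG in that of Rgs7 (5.49%). The CArG box and the MEF2 site were in none of the 10 (1.42% and 2.81% of all). All motifs were searched on both strands. A match only describes the letters of these windows.

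Rgs4, an abundant regulator of Gi/o and Gq signals in forebrain neurons, had the largest log2 fold change of the 10. WT replicates 1 to 4 held 332, 331, 373 and 326 CPM of it, and HOM replicates 1 to 4 held 239, 269, 227 and 228 CPM. The lowest WT library was well above the highest HOM library. The means were 341 ± 22.03 and 241 ± 19.3 CPM (SD, n = 4), so the HOM mean was 70.7% of the WT mean. On the log2 scale the change was -0.50 (SE 0.07, 95% interval -0.66 to -0.34, edgeR adjusted p = 0.00497), which ranked 59th of 17395 genes by p-value. The exact two-sided permutation test of log2 CPM gave p = 0.0286, the smallest value that 70 relabellings allow. The call held with each library left out in turn, at log2 fold changes from -0.55 to -0.46. When the choroid plexus level was added to the fit as a covariate, the value was larger, -0.61, with edgeR adjusted p = 0.0504. Rgs4 (ENSMUSG00000038530) spans chr1:169741477-169747642 on the minus strand of GRCm38 and shares no base with another annotated gene.

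Rgs8, which acts on Gi/o proteins and quickens the gating of G-protein-coupled potassium channels, was the other member that passed. WT replicates 1 to 4 had 109, 111, 112 and 119 CPM and HOM replicates 1 to 4 had 96.1, 92.2, 83.4 and 92.2 CPM. Replicates lay close together within each genotype. The means were 113 ± 4.34 and 91.0 ± 5.35 CPM (SD, n = 4), the log2 fold change was -0.31 (SE 0.06, 95% interval -0.45 to -0.18) and the edgeR adjusted p was 0.0195. This call was lost when WT replicate 3, WT replicate 4 or HOM replicate 3 was left out. The log2 fold changes were then -0.32, -0.29 and -0.26, and the edgeR adjusted p 0.0635, 0.0524 and 0.0836. In those fits 181, 482 and 180 of all genes were called, against 940 in the main fit. Fitting the choroid plexus level as a covariate gave an edgeR adjusted p of 0.305 for Rgs8 (log2 fold change -0.25). Rgs8 (ENSMUSG00000042671) spans chr1:153653025-153700323 on the plus strand, of which 4.79% is shared with the antisense gene Gm29529.

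Rgs2, a regulator with a preference for Gq alpha and a gene that neuronal activity is known to induce, was lower but did not pass. WT replicates had 42.3, 45.9, 48.0 and 46.7 CPM and HOM replicates had 40.8, 37.6, 35.3 and 40.8 CPM. The genotypes did not overlap in scaled CPM, but the lowest WT and the highest HOM library lay close together. Relative to library totals alone, HOM replicates 1 and 4 were slightly above WT replicate 1. The log2 fold change was -0.24 (SE 0.07, 95% interval -0.40 to -0.08, edgeR adjusted p = 0.0716; p = 0.0286 in the exact two-sided permutation test), and DESeq2 called it (adjusted p = 0.0265). The interval allows a fall of 5.64% to 24.3%. Rgs2 (ENSMUSG00000026360) spans chr1:143999338-144004161 on the minus strand and is free of other genes.

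Rgs4 and Rgs2 were compared within libraries, where scaling has no part. The log2 ratio of Rgs2 to Rgs4 averaged -2.90 ± 0.0818 over WT and -2.64 ± 0.157 over HOM libraries (SD, n = 4), a difference of 0.26. Its p was 0.0571 by exact two-sided permutation and 0.229 after adjustment over 4 ratios. The difference between both genes' fold changes did not pass. With 4 against 4 libraries the smallest unadjusted p is 0.0286. A ratio at that value by itself would still not pass after adjustment over 4 ratios. The adjusted test therefore cannot decide whether the fold changes of Rgs2 and Rgs4 differ. In scaled CPM, summed excitatory, interneuron, astrocyte and pericyte markers did not overlap between genotypes and were lower in HOM. Relative to library totals alone, the excitatory and astrocyte sums overlapped. Gad1, the gene of a GABA-producing enzyme, had a log2 fold change of -0.48. The part of all these markers in the falls of Rgs4 and Rgs8 was not tested.

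**Figure D2:**
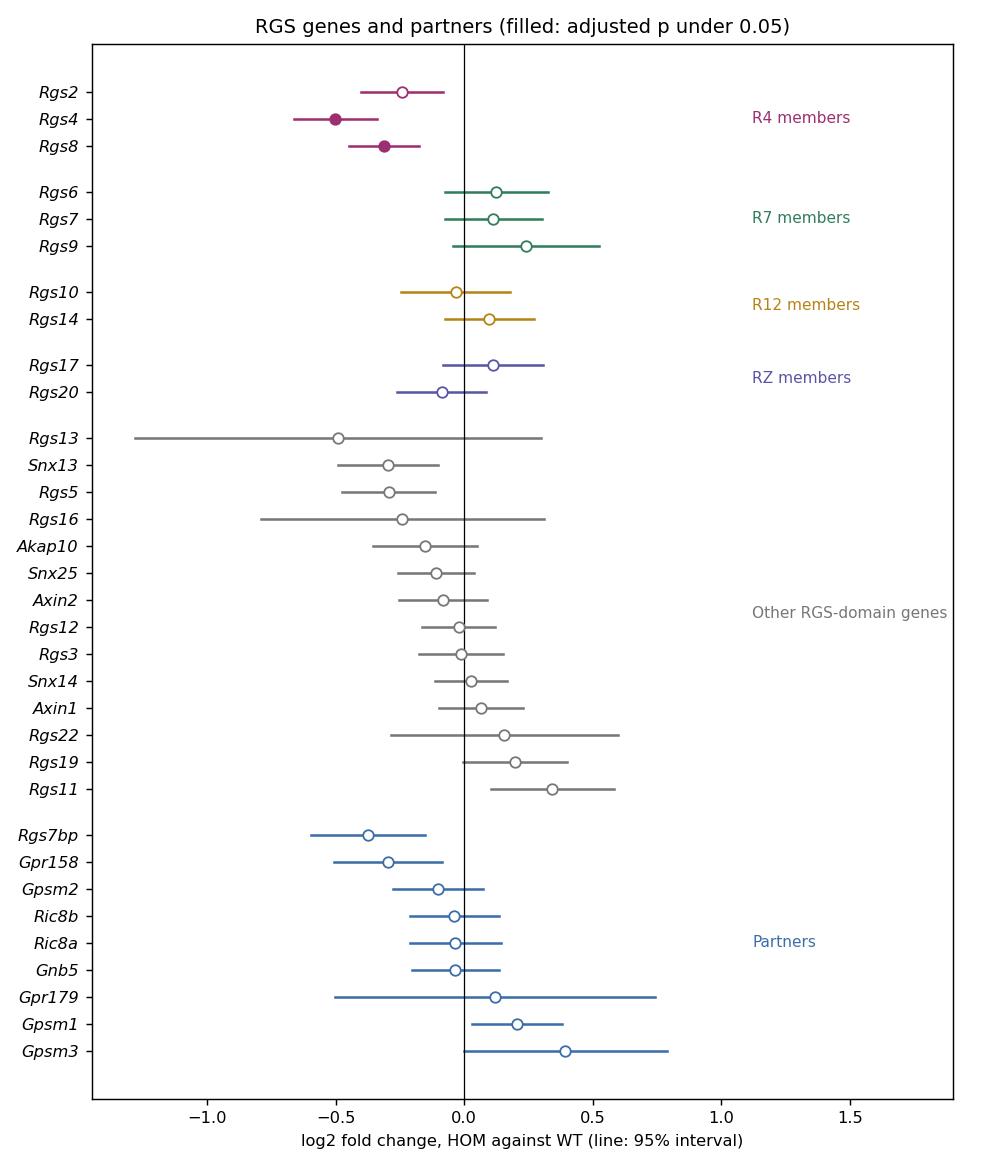
Log2 fold change of HOM against WT (x axis) with its 95% interval for the 10 members by subfamily, 14 other genes with an RGS domain and 9 partner genes; filled points passed the test. Rgs4 at -0.50 and Rgs8 at -0.31 are the filled points.

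The R7 members Rgs6, Rgs7 and Rgs9 had mean levels a little above WT, and none passed. Rgs7, a regulator of Gi/o signals across the brain, had 162, 145, 155 and 125 CPM in WT and 176, 159, 148 and 150.4 CPM in HOM replicates 1 to 4. Rgs6, known for damping GABA-B and muscarinic signals, had 149, 129, 134 and 111 CPM in WT and 159.8, 144, 137 and 129 CPM in HOM. The genotypes overlapped for both. The log2 fold changes were 0.11 for Rgs7 (95% interval -0.08 to 0.30, edgeR adjusted p = 0.470) and 0.12 for Rgs6 (-0.08 to 0.33, edgeR adjusted p = 0.449). These intervals leave room for a rise of 23.4% in Rgs7 and 25.3% in Rgs6. In GRCm38, Rgs7 (ENSMUSG00000026527) spans chr1:175059087-175492500 on the minus strand, and Rgs6 (ENSMUSG00000021219) spans chr12:82588292-83162056 on the plus strand. Rgs6 shares 7.90% of its span with other genes.

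Rgs9, whose long splice form restrains dopamine and opioid signals in the striatum, spread most among HOM libraries. WT replicates 1 to 4 had 102, 79.9, 87.7 and 109 CPM and HOM replicates had 108, 138, 87.1 and 115 CPM. HOM replicate 2 was highest and HOM replicate 3 lowest of that genotype. The log2 fold change was 0.24 (SE 0.13, 95% interval -0.04 to 0.53, edgeR adjusted p = 0.292). The summed level of 10 markers of striatal projection neurons was 797, 822, 774 and 874 CPM in WT and 843, 997, 688 and 913 CPM in HOM. Within HOM it was again highest in replicate 2 and lowest in replicate 3. In WT both Rgs9 and the marker sum were highest in replicate 4, but Rgs9 was lowest in replicate 2 and the sum in replicate 3. None of these markers passed, 1 had an unadjusted p under 0.05, and DESeq2 and limma-voom called none. Within libraries, the log2 ratio of Rgs9 to Pde10a, a phosphodiesterase gene of striatal neurons, averaged -1.53 ± 0.146 over WT and -1.38 ± 0.161 over HOM libraries (SD, n = 4). By exact permutation, two-sided, p was 0.229 and 0.419 after adjustment. The part of striatal content in the Rgs9 values was not tested. Rgs9 (ENSMUSG00000020599) spans chr11:109225355-109298129 on the minus strand.

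Of the partners of the R7 group none passed. Gnb5, the gene of the G beta 5 protein that R7 proteins need, stood at 82.4 ± 7.11 CPM in WT and 80.4 ± 6.08 CPM in HOM (SD, n = 4). Its fold change on the log2 scale was -0.03 (edgeR adjusted p = 0.834), and 0.03 with library totals only. It shares 76.6% of its span with other genes, so its count is uncertain. The log2 ratio of Rgs7 to Gnb5 averaged 0.83 ± 0.242 over WT and 0.98 ± 0.151 over HOM libraries (SD, n = 4), with p = 0.314 by exact permutation. Rgs7bp, whose product anchors R7 complexes at the membrane, was at 484, 391, 491 and 441 CPM in WT and 327, 422, 335 and 311 CPM in HOM. Only HOM replicate 2 reached into the WT range. Its log2 fold change was -0.37 (SE 0.10, edgeR adjusted p = 0.0542). With a library left out, edgeR adjusted p ran from 0.0120 (without HOM replicate 2) to 0.173, and 2 of these 8 fits called it. With the choroid plexus covariate it was 0.197. DESeq2 gave an adjusted p of 0.0105. Gpr158, a receptor that recruits Rgs7, had a log2 fold change of -0.30 (SE 0.10, edgeR adjusted p = 0.0927). The full list of RGS partners reached beyond the R7 group, as it also held Ric8a, Ric8b, Gpsm1, Gpsm2 and Gpsm3. The 3 genes with an unadjusted p under 0.05 were Rgs7bp, Gpr158 and Gpsm1, the last with a log2 fold change of 0.20. Of all 9 genes tested from this list none passed in edgeR, DESeq2 called 2 and limma-voom 1. Their median log2 fold change was -0.03.

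The R12 members did not pass either. Rgs14, a scaffold known for limiting plasticity in hippocampal CA2 neurons, had 51.9, 54.9, 50.1 and 54.2 CPM in WT and 53.4, 51.0, 56.5 and 64.9 CPM in HOM. HOM replicate 4 was the highest. The log2 fold change was 0.10 (95% interval -0.08 to 0.27, edgeR adjusted p = 0.497). None of 7 CA2 markers passed in edgeR, DESeq2 or limma-voom, and 1 had an unadjusted p under 0.05. Their summed level was 569 to 627 CPM in WT and 530 to 592 CPM in HOM. Rgs14 (ENSMUSG00000052087) spans chr13:55369732-55384687 on the plus strand.

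Rgs10, a small regulator that is prominent in microglia, had the fewest counts of the members, at 20.5 ± 2.20 CPM in WT and 19.96 ± 1.91 CPM in HOM (SD, n = 4). Its libraries ran from 17.7 to 22.4 CPM in WT and from 18.1 to 22.5 CPM in HOM. The log2 fold change was -0.03 (95% interval -0.25 to 0.18, edgeR adjusted p = 0.871), with a sign that changed with library totals only (0.03) or the choroid plexus covariate (0.02). Of 8 microglial markers tested, the complement gene C1qa rose (log2 fold change 0.44, edgeR adjusted p = 0.04997) and 7 did not pass, and P2ry12, a ninth on the list, was at 0. Their summed level was 299.99 to 352 CPM in WT and 343 to 380.2 CPM in HOM. The log2 ratio of Rgs10 to Csf1r, a microglial receptor gene, averaged -2.17 ± 0.0997 over WT and -2.21 ± 0.123 over HOM libraries (SD, n = 4), with p = 0.6 by exact permutation. Rgs10 (ENSMUSG00000030844) spans chr7:128373621-128418758 on the minus strand and shares 7.48% of that with Gm15503.

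The RZ members, which act above all on Gz and Gi/o proteins, were split in sign. Rgs17 had 131, 99.0, 126 and 111 CPM in WT and 130.1, 133, 129 and 113 CPM in HOM, and its log2 fold change was 0.11 (95% interval -0.08 to 0.31, edgeR adjusted p = 0.483). Rgs20 had 48.0, 41.1, 44.2 and 43.9 CPM in WT and 44.8, 43.9, 37.0 and 41.0 CPM in HOM, and its log2 fold change was -0.09 (95% interval -0.26 to 0.08, edgeR adjusted p = 0.538). Neither separated the genotypes. Rgs20 shares 6.36% of its span with 5 other genes, among them Atp6v1h. On the minus strand, Rgs17 (ENSMUSG00000019775) spans chr10:5825663-5922400 and Rgs20 (ENSMUSG00000002459) spans chr1:4909576-5070285.

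Levels of different members were compared per kilobase of annotated exon. Rgs4 stood highest in WT at 110.0 ± 7.11 CPM per kb, followed by Rgs7 at 24.3 ± 2.70 CPM per kb (SD, n = 4). The other 8 lay between 10.5 ± 0.671 (Rgs20) and 14.8 ± 2.11 CPM per kb (Rgs9). From Rgs9 down to Rgs8 (11.7 ± 0.450 CPM per kb) neighbours in this order differed by less than the larger of their SDs, whereas Rgs8 was above Rgs20 by more than either SD. In HOM the order still began with Rgs4 at 77.7 ± 6.24 and Rgs7 at 26.3 ± 2.15 CPM per kb. The counts are taken to include intron reads, because 95.3% of 1348 protein-coding genes whose span is fully covered by other genes had no count at all, and 13.4% of the other 20570 had none. Exon length then overstates the level of long genes. Per kilobase of span, Rgs4 remained first at 55.2 ± 3.57 CPM per kb and Rgs2 was second at 9.47 ± 0.504, while Rgs7 (0.338 ± 0.0376), Rgs20 (0.276 ± 0.0177) and Rgs6 (0.228 ± 0.0273) were last (SD, n = 4).

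Span differs widely among the members, and fold changes varied with span across the table. Rgs2 spans 4.82 kb, Rgs4 6.17 kb and Rgs8 47.3 kb, whereas Rgs7 spans 433 kb and Rgs6 574 kb. Protein-coding genes over 200 kb had a median log2 fold change of 0.06, and 7.34% of these 967 genes passed as higher and 2.79% as lower. In 3210 genes under 10 kb the median was 0.02. Between these it was -0.02 (10 to 50 kb), -0.05 (50 to 100 kb) and -0.04 (100 to 200 kb), so it did not rise steadily with span. In each bin up to 200 kb more genes passed as lower than as higher. The 500 protein-coding genes nearest to Rgs4 in span had a median of 0.02, and Rgs4 was 0.53 below it. Rgs8 was 0.28 and Rgs2 0.26 below the median of theirs, whereas Rgs7 (0.04) and Rgs6 (0.02) lay close to genes of like span. Rgs9 was 0.29 above. These distances are a description and were not tested.

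**Figure D3:**
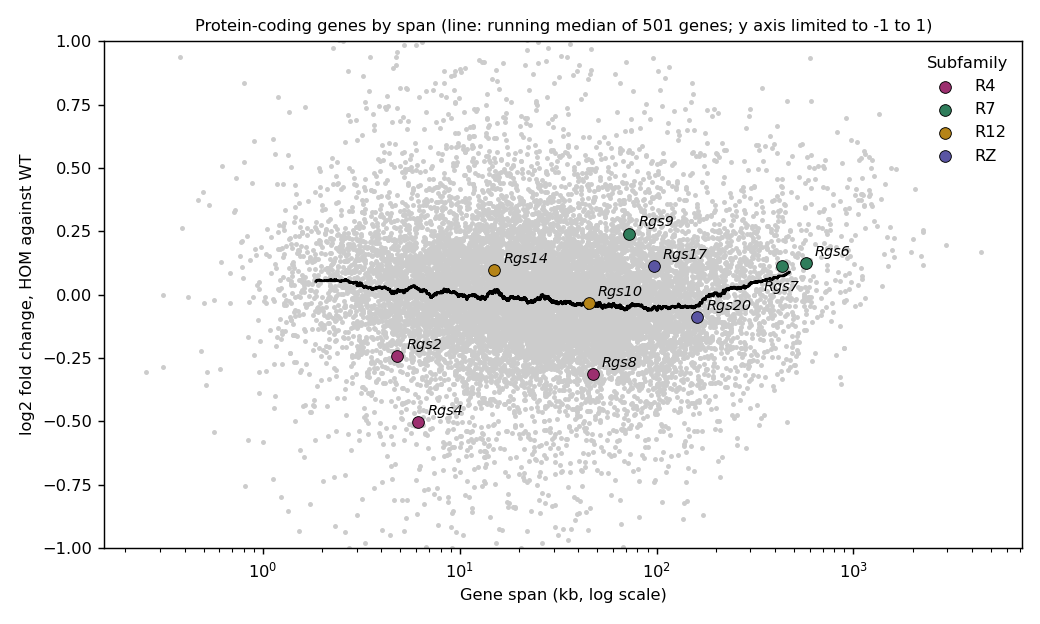
Log2 fold change of HOM against WT (y axis, limited to -1 to 1) against gene span in kb (log x axis) for protein-coding genes in grey, with a running median in black and the members coloured by subfamily. Rgs2, Rgs4 and Rgs8 lie below the running median and Rgs6 and Rgs7 close to it.

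The other genes with an RGS domain were taken from a list of 17, of which 14 were tested. None passed in edgeR, 3 had an unadjusted p under 0.05, DESeq2 called 3 and limma-voom 0. The median log2 fold change was -0.05. The closest to the threshold was Rgs5, an R4 gene known from pericytes (log2 fold change -0.29, SE 0.08, edgeR adjusted p = 0.0597). It had 90.8, 81.7, 88.7 and 83.5 CPM in WT and 72.9, 81.0, 64.5 and 62.8 CPM in HOM. With a library left out, edgeR adjusted p ran from 0.0238 (without HOM replicate 2) to 0.197, and 1 of these 8 fits called it. In scaled CPM Rgs5 did not overlap between genotypes, but relative to library totals alone it did. The 6 pericyte and smooth muscle markers did not overlap either in their summed level, at 46.7 to 51.2 CPM in WT and 36.5 to 40.5 CPM in HOM, and 2 of them, Myh11 and Abcc9, fell. Their part in the Rgs5 value was not tested. The R7 gene Rgs11 had a log2 fold change of 0.34 (edgeR adjusted p = 0.0892) but shares 57.8% of its span with other genes. Rgs1, Rgs18 and Rgs21 were not tested, with 36, 29 and 5 counts over all 8 libraries.

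In the lists of G-protein genes that follow, counts stand against 2.94% of all genes lower and 2.47% higher. Of 12 G alpha genes tested none passed in edgeR, DESeq2 or limma-voom, and 3 had an unadjusted p under 0.05 (median log2 fold change -0.05). Gnaz, the gene of Gz alpha, was listed but not tested, with 0 counts over all 8 libraries, so its level is not known here. Of 13 G beta and gamma genes, Gng4, a gamma subunit gene of neurons, fell from 58.3 ± 2.01 to 47.0 ± 2.06 CPM (SD, n = 4), a log2 difference of -0.31 (edgeR adjusted p = 0.0191). That call was lost without WT replicate 3 (log2 fold change -0.30, edgeR adjusted p = 0.0706) or HOM replicate 3 (-0.31, 0.0751), with the replicate block (-0.31, 0.0649), with both replicates 4 left out (-0.28, 0.0772) and with the choroid plexus covariate (-0.27, 0.261). Among 17 effector genes the calcium-stimulated adenylyl cyclase gene Adcy1 fell from 1117 ± 72.6 to 840.3 ± 93.6 CPM (log2 fold change -0.41, edgeR adjusted p = 0.0215), and leaving out replicate 1 or 3 of either genotype ended the call (log2 fold change -0.42 to -0.38, edgeR adjusted p from 0.0515 to 0.0784), as did the choroid plexus covariate (-0.49, 0.138). Of 7 receptor kinase and arrestin genes, Grk4 rose from 5.63 ± 0.545 to 7.67 ± 0.309 CPM (log2 fold change 0.44, edgeR adjusted p = 0.0359). It shares 28.9% of its span with other genes and its call was lost in 6 of the 8 removals of a library, holding without WT replicate 1 and without HOM replicate 2. It was also lost with the replicate block (0.45, edgeR adjusted p = 0.0741), with both replicates 4 left out (0.45, 0.09996) and with the choroid plexus covariate (0.53, 0.1999).

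Receptors on whose G proteins the members act fell at 5 of 30 genes, and none rose, with 13 at an unadjusted p under 0.05, where 2.94% of all genes fell and 22.9% had such a p. These were Grm2, a presynaptic glutamate receptor gene (from 65.3 ± 4.94 to 48.7 ± 4.55 CPM, log2 fold change -0.42), the adrenergic receptor gene Adra1b (-0.40), the adenosine receptor gene Adora1 (-0.28) and the muscarinic receptor genes Chrm4 (-0.27) and Chrm1 (-0.25), with edgeR adjusted p from 0.0175 to 0.0450 (SDs with n = 4). The median over the 30 was -0.13, against 0.00 for all genes. The count was 2, 4, 0 and 3 without WT replicates 1 to 4, and 0, 4, 1 and 2 without HOM replicates 1 to 4. DESeq2 called 8 lower and 2 higher, and with the choroid plexus covariate the count was 0. With upper-quartile scaling 3 were lower and none higher, and with library totals only 2 were lower and 2 higher. With library totals only the calls of Adora1 (-0.21, edgeR adjusted p = 0.0608), Chrm4 (-0.20, 0.0893) and Chrm1 (-0.18, 0.0971) were lost, and those of Grm2 and Adra1b held.

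**Figure D4:**
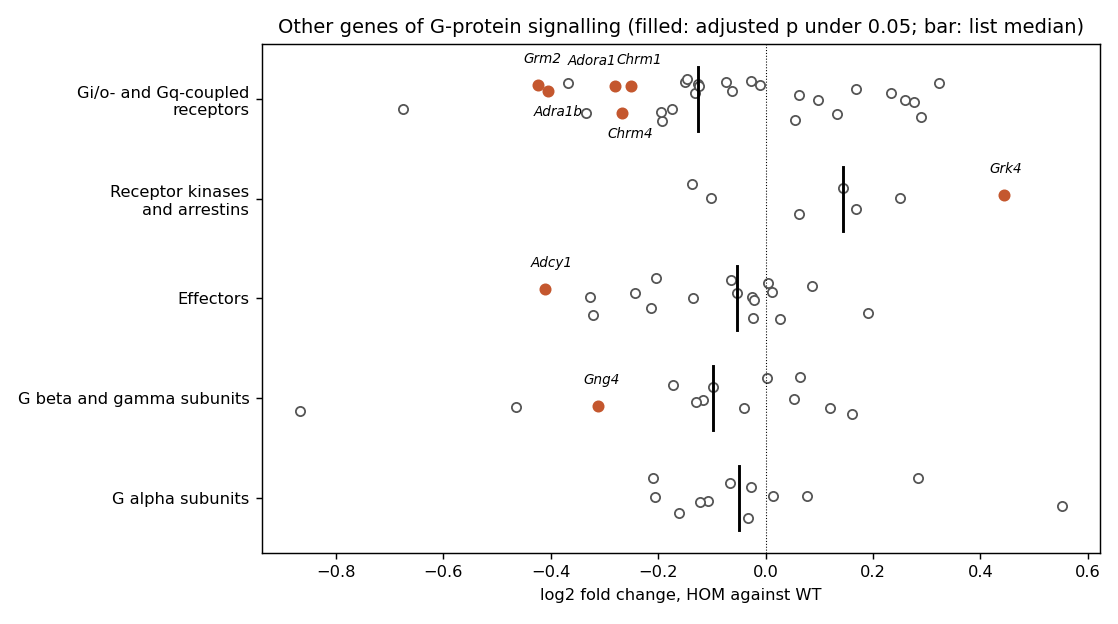
Log2 fold change of HOM against WT (x axis) for the genes of 5 lists of G-protein signalling (y axis); filled points passed the test, bars mark list medians and points are spread vertically for sight. Points that passed are at -0.42 to -0.25 for 5 receptors, -0.41 for Adcy1, -0.31 for Gng4 and 0.44 for Grk4.

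Deviations of libraries from their genotype mean were compared between the called members and 9971 other protein-coding genes with a mean of at least 10 CPM. Over the 8 libraries those of Rgs4 were most like Kcnk2 (Pearson r = 0.976), Cemip (0.970) and Brap (0.950), and those of Rgs8 most like Utp18 (0.962), Ctnnd1 (0.946) and Pbx3 (0.938). These are the highest of many values over 8 libraries that share their preparation and scaling, and serve as a description. None of the 6 genes passed between genotypes (edgeR adjusted p from 0.0589 to 0.827).

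**Figure D5:**
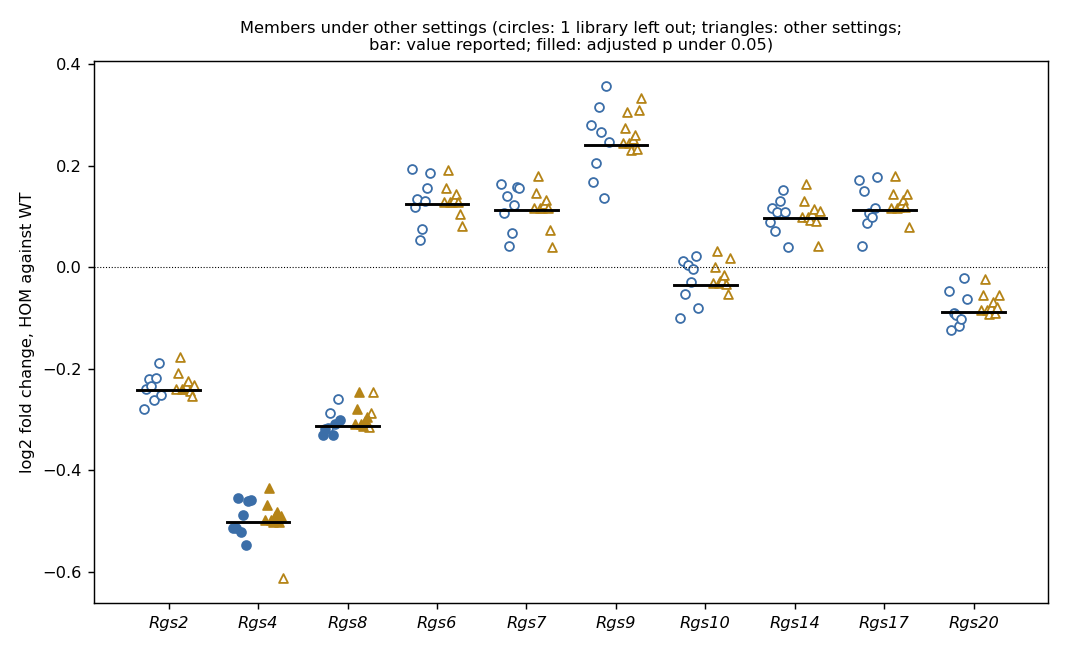
Log2 fold change of HOM against WT (y axis) of each member (x axis) with 1 library left out (circles), under 10 other settings (triangles) and as reported (bars); filled symbols passed the test. Rgs4 stays between -0.61 and -0.43 and Rgs8 between -0.33 and -0.25, and Rgs10 lies on both sides of 0.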

How the data were processed

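The authors deposited raw read counts per Ensembl gene for 4 WT and 4 HOM samples. Per the labels, libraries were stranded and paired-end. The tools named in the submitters' processing notes are STAR, featureCounts, edgeR and FastQC 0.11.3, and the build is GRCm38. Which annotation and strand option the counting took is not given in the sources used here. Names and spans came from GENCODE M21, which held 54409 of 54446 identifiers (0.0143% of counts were in the other 37). Tests ran on the counts in R 4.3.3 with edgeR 4.0.16 (quasi-likelihood, TMM, filterByExpr, genotype only), with Benjamini-Hochberg adjustment over all genes and a threshold of 0.05. The procedure was tested on simulated data. Log2 CPM used a prior count of 2. Permutation tests ran over 70 relabellings. Alternatives were DESeq2 1.42.0, limma-voom (limma 3.58.1), other scalings and filters, a replicate block, a choroid plexus covariate and removal of libraries. No 2 libraries agreed within sampling noise (lowest chi-square per degree of freedom 7.11). The members, lists and tests were chosen with earlier results of these data known. Named genes were the members, then up to 4 called genes of smallest p from each list and genes needed beside a member; Chrm1, Rgs5 and Rgs11 were added after their values were seen. The motifs were chosen after the fold changes were seen.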

Additional observations from a re-analysis of the deposited data

Results flagged for a closer look

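In 46 sets of 4 libraries (19 genes and 4 ratios in each genotype), 4 held a library that stood far from the other 3. By chance about 1 in 20 sets would. Rgs4 stood at 373 CPM in WT replicate 3, against 326 to 332 CPM in the other WT libraries. Without that library its log2 fold change was -0.46 and edgeR adjusted p was 0.0257. Gng4 stood at 55.3 CPM in WT replicate 1, against 59.0 to 59.7 CPM, and Grm2 at 57.9 CPM in WT replicate 4, against 67.1 to 68.3 CPM. Grk4 stood at 7.20 CPM in HOM replicate 2, against 7.81 to 7.83 CPM.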

How the results depend on the processing

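Rgs4 was called with each of the 8 libraries left out and under 9 of 10 other settings (log2 fold change -0.55 to -0.46 and -0.61 to -0.43); the exception was the choroid plexus covariate (-0.61, edgeR adjusted p = 0.0504). Rgs6, Rgs7, Rgs9, Rgs14, Rgs17 and Rgs20 kept their sign and were called in no setting tried, but single libraries moved their size: Rgs6 was 0.0532 and Rgs7 0.0417 without WT replicate 4, Rgs9 0.137 without HOM replicate 2, Rgs14 0.0398 without HOM replicate 4, Rgs17 0.0411 without WT replicate 2 and Rgs20 -0.0218 without HOM replicate 3. The number of members called was 1 with the replicate block, 1 with both replicates 4 left out, 0 with the choroid plexus covariate and 1 to 2 with a library left out. Rgs8 was not called with the replicate block (-0.31, 0.0552), with both replicates 4 left out (-0.29, 0.0734) or with the covariate (-0.25, 0.305), and ranged from -0.33 to -0.26 with a library left out. Rgs2 was called with DESeq2 alone (-0.24). It ranged from -0.28 to -0.19 with a library left out, and was -0.18 with library totals only. Rgs10 was above 0 with library totals only (0.0321), the covariate (0.0176), and without WT replicate 2 (0.0117), WT replicate 4 (0.0039) or HOM replicate 3 (0.0225), with a range of -0.0997 to 0.0225 over the removals of a library. Gnb5 was above 0 with library totals only (0.0325) and without WT replicate 2 (0.00904) or HOM replicate 3 (0.0123), with a range of -0.0899 to 0.0123 over the removals. The number of all genes called was 940 as reported, 1900 with DESeq2, 364 with the replicate block, 335 with both replicates 4 left out, 39 with the covariate and 180 to 1187 with a library left out (181 without WT replicate 3, 180 without HOM replicate 3, 212 without HOM replicate 1). The cause of these changes was not tested. No pairing of libraries by replicate number was seen over all genes. Deviations of same-numbered libraries correlated at 0.05, -0.20, -0.01 and 0.03, and no library correlated best with its own number. These values cannot exclude a shared litter or batch, which the labels do not give. Choroid plexus content differed between libraries within and between genotypes, so its part cannot be told apart from that of genotype with 8 libraries.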
